A study of Mus musculus with 24 samples.

Results

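The 10 activity-induced immediate early genes described here were measured in the hippocampus of female mice that had lost *Fkbp5* in glutamatergic forebrain neurons, had been reared under early life stress (ELS), or both. They were *Fos*, *Fosb*, *Junb*, *Egr1*, *Egr2*, *Npas4*, *Nr4a1*, *Arc*, *Dusp1* and *Ier2*, chosen by gene name, and each matched 1 row of the 46983 genes in the read count table. All 10 were also among the 16209 genes that passed the filter of 10 or more reads in all mice of one or more groups. Bulk mRNA had been sequenced from punches of the dorsal and ventral hippocampus of 24 female C57BL/6 mice. Of these, 12 were Fkbp5lox/lox mice, which carry loxP-flanked *Fkbp5* alleles without Cre and served as wild types, and the others were Fkbp5Nex mice, which carry the same floxed alleles plus Cre recombinase from the Nex (*Neurod6*) locus. That Cre is active in glutamatergic forebrain neurons from embryonic life but not in the dentate gyrus, so other hippocampal cells keep *Fkbp5*. Within each genotype, 6 mice had been reared under control conditions and 6 under ELS, in which dams and pups received limited bedding and nesting material during the first postnatal days. The mice were adults when the tissue was taken, and their age and litter are not in the labels. Per the study, the sequenced females came from its first cohort. As adults, mice of that cohort went through open field, plus maze, object recognition and Morris water maze tests. They were then scanned by MRI under isoflurane, and the methods describe killing with a lethal isoflurane dose. The interval between the last handling or behavioural test and the collection of the brains is not given in the sources used here. The part of this history in the levels was not tested. The comparisons asked whether the genes differed with genotype, with ELS, or in their response to ELS between the genotypes.

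Immediate early genes are transcribed within minutes of neuronal depolarisation, without new protein synthesis. Calcium entry and kinase signalling activate transcription factors that are already present, such as CREB on cAMP response elements (CRE) and serum response factor on CArG boxes, and the messages are short-lived. In the hippocampus their levels follow recent activity, novelty, learning, handling and stress, which makes them markers of recently active neurons. Their products fall into several classes. *Fos*, *Fosb* and *Junb* encode subunits of the AP-1 dimer, *Egr1* and *Egr2* zinc finger transcription factors, *Npas4* a neuronal basic helix-loop-helix factor that responds chiefly to calcium, and *Nr4a1* an orphan nuclear receptor. *Arc* encodes a postsynaptic protein that drives the internalisation of AMPA receptors, *Dusp1* a phosphatase that inactivates MAP kinases and is also induced by glucocorticoids, and *Ier2* a small nuclear protein.

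The stretches before the start site are shown for 5 of the genes because they hold the letters of such response elements. RefSeq start sites on GRCm38.p6 were matched by symbol for 7 of the 10 genes (*Fos*, *Fosb*, *Junb*, *Egr2*, *Nr4a1*, *Npas4* and *Dusp1*), with 5 alternative starts for *Egr2*, some of whose windows overlap. Sequences are given 5′ to 3′ on the strand of the gene, and capitals mark every match, on either strand, to the motifs described after them. The stretches span chr15:101266596-101266845 for *Nr4a1* (plus strand, in an intron of a longer *Nr4a1* transcript of GENCODE vM21), chr10:67537619-67537868 for *Egr2* (plus strand, within the span of the gene but outside its exons), chr12:85473640-85473889 for *Fos* (plus strand), chr8:84978749-84978998 for *Junb* (minus strand) and chr17:26508520-26508722 for *Dusp1* (minus strand). The *Dusp1* stretch lies within the vM21 span of the gene and ends before the vM21 exon in its window.
*Nr4a1*: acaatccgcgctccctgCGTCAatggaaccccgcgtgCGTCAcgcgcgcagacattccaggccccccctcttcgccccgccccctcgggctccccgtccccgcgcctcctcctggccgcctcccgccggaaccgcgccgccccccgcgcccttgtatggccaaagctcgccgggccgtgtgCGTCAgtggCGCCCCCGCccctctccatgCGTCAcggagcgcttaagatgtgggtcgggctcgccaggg
*Egr2*: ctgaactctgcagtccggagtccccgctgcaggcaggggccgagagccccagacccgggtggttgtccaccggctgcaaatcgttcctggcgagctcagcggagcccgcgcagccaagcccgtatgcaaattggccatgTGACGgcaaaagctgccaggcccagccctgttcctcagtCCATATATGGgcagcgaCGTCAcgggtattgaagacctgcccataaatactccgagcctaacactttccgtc
*Fos*: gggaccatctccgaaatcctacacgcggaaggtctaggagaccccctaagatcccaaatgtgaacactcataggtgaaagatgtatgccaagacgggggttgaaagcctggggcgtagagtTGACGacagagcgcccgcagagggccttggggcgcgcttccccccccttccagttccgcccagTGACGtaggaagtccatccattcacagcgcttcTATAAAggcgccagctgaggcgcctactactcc
*Junb*: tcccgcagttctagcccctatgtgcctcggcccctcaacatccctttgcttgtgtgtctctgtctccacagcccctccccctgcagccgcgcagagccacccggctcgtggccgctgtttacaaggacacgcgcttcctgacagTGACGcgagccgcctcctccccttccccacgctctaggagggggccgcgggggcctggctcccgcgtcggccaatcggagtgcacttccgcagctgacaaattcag
*Dusp1*: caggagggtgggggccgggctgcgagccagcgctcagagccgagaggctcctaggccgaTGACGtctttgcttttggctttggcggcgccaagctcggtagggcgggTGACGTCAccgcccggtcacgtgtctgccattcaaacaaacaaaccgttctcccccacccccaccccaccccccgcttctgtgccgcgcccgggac

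The letters TGACG, the core of the CRE, were present within the 250 bases before the start site in all 7 genes, in 9 of 11 windows, against 17.8% of 32851 windows of the same length before all RefSeq starts. *Nr4a1* held 4 copies, all in the reverse orientation (CGTCA in the stretch shown), and *Fos* held 2. The full palindrome TGACGTCA, which contains the core on both strands, was found only in *Dusp1* among the 7 genes and in 1.55% of all windows. A CArG box was found only in *Egr2*, in 4 of its 5 windows, against 1.47% of all windows. The EGR site GCGNGGGCG lay before *Nr4a1* and *Fosb* (4.7% of all windows), and the TATA box TATAAA before *Fos* (12.4%). The AP-1 site TGANTCA was in none of the 7 genes and in 6.75% of all windows. The window of *Npas4* lies within an exon of vM21 and is not shown. A match describes the letters in this window only.

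**Figure D1:**
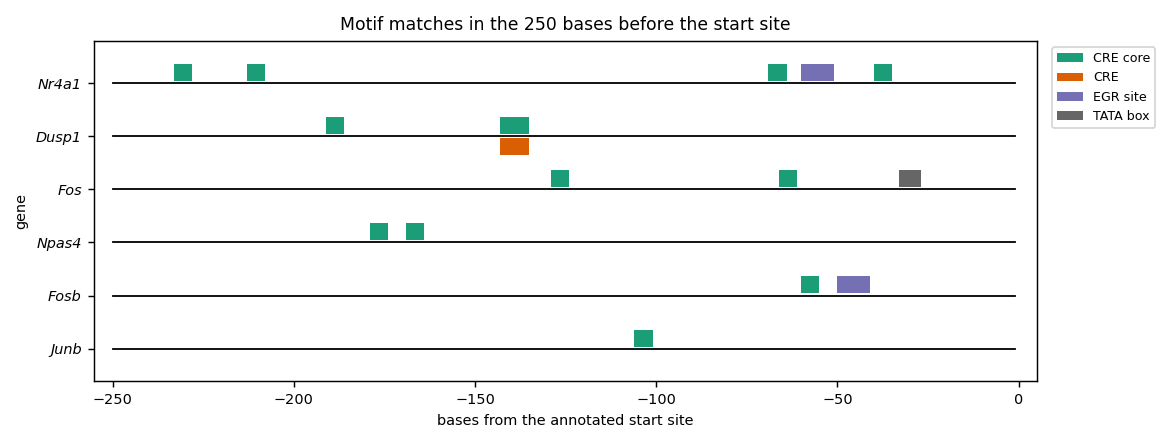
Motif matches before the start site of 6 of the genes (rows). The x axis gives the distance from the annotated start site in bases, and coloured blocks mark CRE cores, the full CRE, EGR sites and the TATA box on either strand. *Nr4a1* shows 4 CRE cores and an EGR site, and *Dusp1* is the gene with a full CRE.

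The libraries held from 18347283 to 26555623 reads on genes. *Fkbp5* was checked first in every mouse and went with the genotype label in all 24, with 47.7 to 63.4 CPM (reads of a gene relative to the TMM-scaled size of the library) over all Fkbp5lox/lox mice and 8.71 to 26.5 CPM over all Fkbp5Nex mice. The punches differed in their content of neighbouring cell types. The summed level of 6 dentate granule cell markers (*Prox1*, *Dsp*, *C1ql2*, *Stxbp6*, *Npnt* and *Lct*, none at 0) ran from 136 to 943 CPM. Its group medians were 378 CPM in Fkbp5lox/lox control (range 286 to 474), 404 CPM in Fkbp5lox/lox ELS (239 to 943), 205 CPM in Fkbp5Nex control (136 to 678) and 202 CPM in Fkbp5Nex ELS mice (161 to 495), so that the ranges overlapped. The summed level of 6 choroid plexus markers, led by *Ttr*, ran from 18.4 to 4570 CPM. Its group medians were 891, 533, 55.0 and 146 CPM in the same order, again with overlapping ranges. The summed level of 6 CA1 pyramidal cell markers ran from 88.0 to 987 CPM. Its group medians were 384, 349, 438 and 500 CPM in the same order, with overlapping ranges. That of 6 thalamus markers ran from 70.2 to 328 CPM. Fewer cells of a type and less RNA per cell cannot be told apart in bulk tissue, and this holds for every level below.

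All of the genes were detected at the time of collection, at levels that spanned a wide range. Per kilobase of merged exons (GENCODE vM21), the mean level was highest for *Arc*, at 14.4 ± 3.01 CPM per kb (SD over 24 mice). *Junb* followed with 10.1 ± 1.66 CPM per kb and *Egr1* with 9.26 ± 2.14 CPM per kb. *Arc* exceeded *Junb* in 21 of 24 mice, whereas *Junb* exceeded *Egr1* in only 16, so these neighbours in the order were not separated beyond their spread. *Nr4a1* (5.68 ± 1.21 CPM per kb) was below *Egr1* in all 24 mice and above *Dusp1* (2.86 ± 0.376 CPM per kb) in all 24. *Ier2* had 1.97 ± 0.369, *Fos* 1.44 ± 0.43, *Npas4* 1.07 ± 0.402, *Fosb* 0.736 ± 0.147 and *Egr2* 0.206 ± 0.118 CPM per kb. *Fos* exceeded *Npas4* in 19 mice and *Npas4* exceeded *Fosb* in 18. *Fos*, the gene most often used to mark active neurons, was therefore among the lower members in this tissue, with 28 to 150 reads per mouse. *Egr2* had 1 to 36 reads per mouse, so that its values carry a large counting error. It passed the filter only through the Fkbp5Nex ELS group, in which all 6 mice had at least 10 reads, against 5, 3 and 3 mice in the other groups, and a gene that is high in that group was favoured by this filter.

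The ranges of the AP-1 genes overlapped in all groups. *Fos*, at chr12:85473890-85477273 of GRCm38 on the plus strand, had 2.74, 3.37 and 4.6 CPM (lowest, median and highest of 6 mice) in Fkbp5lox/lox control mice and 1.51, 3.43 and 6.25 CPM in Fkbp5lox/lox ELS mice. In Fkbp5Nex mice it had 2.37, 3.37 and 4.17 CPM under control rearing and 2.5, 2.76 and 3.65 CPM after ELS. The Fkbp5lox/lox ELS group held both the lowest and the highest *Fos* value of all 24 mice, 28 reads in mouse 68 and 150 reads in mouse 72, and the other groups lay within its range. Mouse 68 had the smallest library of all mice (18347283 reads on genes), and mouse 72 had 24075448. *Fosb* medians were 4.22 and 3.91 CPM in Fkbp5lox/lox mice (control and ELS) and 5.21 and 4.95 CPM in Fkbp5Nex mice, within a total range of 3.18 to 6.34 CPM. *Junb* medians lay between 22.0 and 25.5 CPM, within a total range of 16.1 to 32.3 CPM.

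Among the EGR factors and *Npas4*, the highest single values came from Fkbp5Nex ELS mice. So did those of *Fosb*, *Junb* and *Nr4a1*, but not those of *Fos*, *Arc*, *Dusp1* and *Ier2*. Mouse 58 gave all of these highest values in that group except that of *Egr2*, which came from mouse 62. *Egr1* had 33.4, 39.5 and 43.0 CPM in Fkbp5lox/lox control, 27.4, 39.9 and 50.2 CPM in Fkbp5lox/lox ELS, 23.8, 39.0 and 55.3 CPM in Fkbp5Nex control and 36.8, 46.4 and 69.8 CPM in Fkbp5Nex ELS mice. All 4 groups overlapped, and the first 3 medians were within 1 CPM of each other. *Npas4*, at chr19:4984355-4990316 on the minus strand, had 1.79, 3.43 and 6.1 CPM in Fkbp5lox/lox control and 1.78, 3.85 and 6.63 CPM in Fkbp5lox/lox ELS mice. It had 2.6, 3.93 and 5.46 CPM in Fkbp5Nex control and 4.13, 5.48 and 8.58 CPM in Fkbp5Nex ELS mice, so that the median was higher after ELS in both genotypes while the ranges overlapped. *Egr2* had medians of 0.814 and 0.447 CPM in Fkbp5lox/lox control and ELS mice, and of 0.474 and 0.753 CPM in Fkbp5Nex control and ELS mice, within 0.0494 to 1.75 CPM.

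The nuclear receptor and the effectors overlapped between groups as well. *Nr4a1*, at chr15:101254269-101274795 on the plus strand, had medians of 17.3, 18.4, 21.0 and 19.0 CPM in Fkbp5lox/lox control, Fkbp5lox/lox ELS, Fkbp5Nex control and Fkbp5Nex ELS mice, within 15.0 to 31.0 CPM. *Arc*, at chr15:74669083-74672570 on the minus strand, had 30.9, 46.5 and 54.1 CPM in Fkbp5lox/lox control, 25.2, 39.3 and 51.5 CPM in Fkbp5lox/lox ELS, 33.8, 45.2 and 63.9 CPM in Fkbp5Nex control and 35.5, 44.7 and 59.4 CPM in Fkbp5Nex ELS mice. *Dusp1* medians ran from 9.17 to 10.4 CPM and those of *Ier2* from 2.65 to 2.9 CPM. *Junb* and *Dusp1* overlap other annotated genes on the opposite strand (*Prdx2* and *Ergic1* among them), and whether the counting used strand is not given in the sources used here, so their levels are less certain. No gene of the 10 had ranges that did not overlap, either between control and ELS mice of a genotype or between genotypes within a rearing condition. Of all tested genes, 0.0925% (ELS in Fkbp5lox/lox), 0.0679% (ELS in Fkbp5Nex), 0.16% (genotype in controls) and 0.173% (genotype after ELS) had such ranges.

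**Figure D2:**
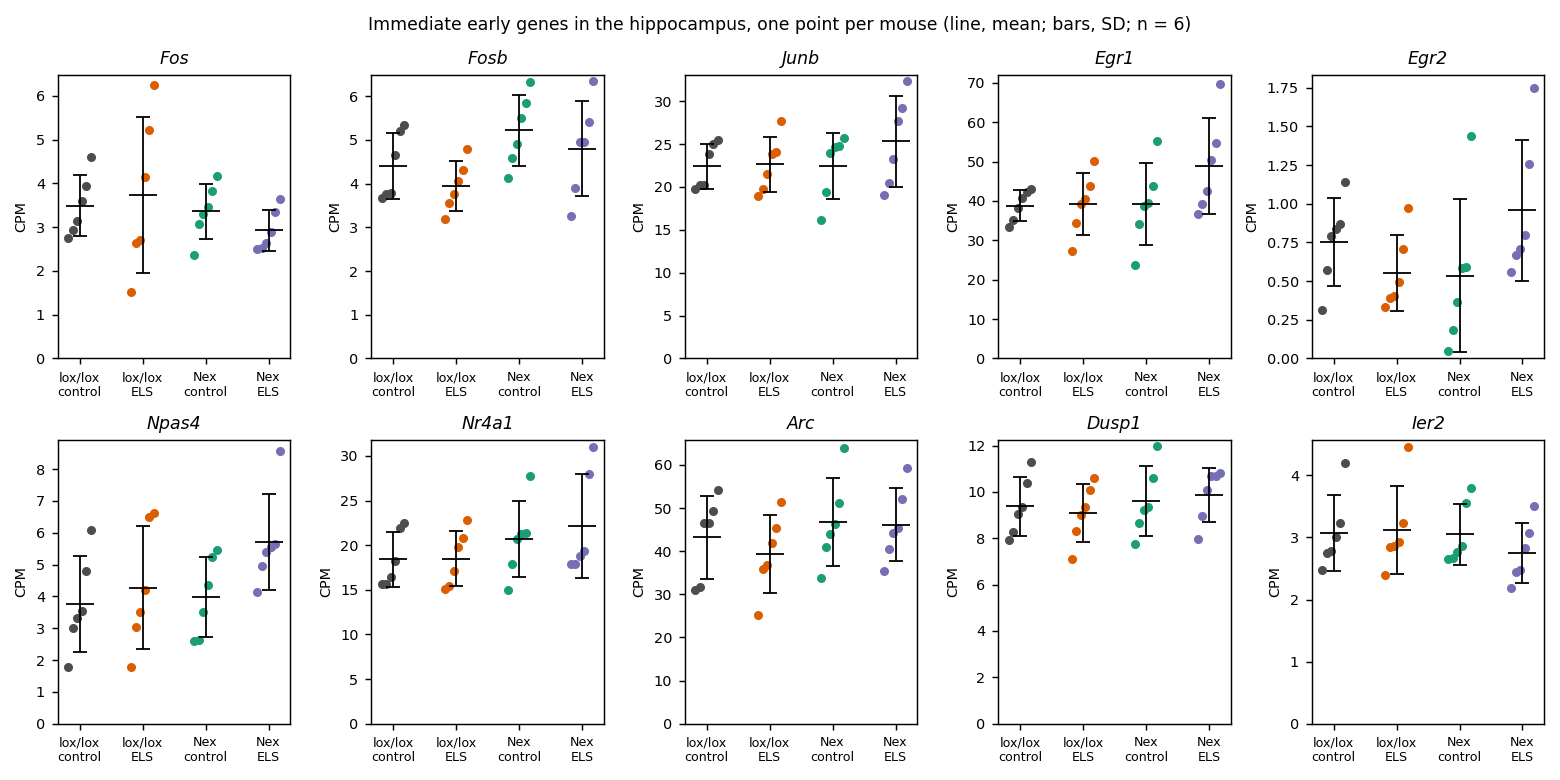
Level of each gene (y axis, TMM-normalised CPM from 0, own scale per panel) in the 4 groups (x axis). Points are single mice, the horizontal line is the mean and the bars are the SD of 6 mice. The groups overlap in every panel, and the Fkbp5lox/lox ELS mice span *Fos* from 1.51 to 6.25 CPM.

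No immediate early gene passed an FDR of 0.02 in any of the 7 contrasts. The test was edgeR's quasi-likelihood test over all tested genes, fitted with the 4 group means and 5 surrogate variables, which absorb variation between mice beyond the groups. DESeq2's Wald test also called 0 of the 10 in each contrast, with an unadjusted p below 0.05 for 1 gene for ELS and 1 for ELS in Fkbp5lox/lox mice (*Npas4* in both) and for 0 in the other 5 contrasts. By that test such a p was found for 2.71% of all tested genes for ELS, for 4.08% for ELS in Fkbp5lox/lox mice and for 2.1% to 10.2% in the other contrasts. For genotype, DESeq2 gave *Egr2* no adjusted p, so it could not be called there. For ELS in Fkbp5lox/lox mice, 0 of 10 genes were called (0% of all tested genes), 0 had an unadjusted p below 0.05 (4.86% of all tested genes), and the log2 fold changes ran from -0.35 (*Egr2*) to 0.51 (*Npas4*) with a median of 0. For ELS in Fkbp5Nex mice, 0 were called (0%) and 0 had p below 0.05 (2.8%), with a median log2 fold change of 0.03. Pooled over the genotypes, ELS gave 0 calls (0%) and 1 gene with p below 0.05 (3.56%), with a median of 0.02 over the 10 genes and 0.003 over all tested genes. The interaction, defined as the ELS effect in Fkbp5lox/lox minus that in Fkbp5Nex mice, gave 0 calls (0%) and 0 genes with p below 0.05 (4.02%).

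The gene with the smallest p for ELS was *Npas4*. Its log2 fold change after ELS was 0.46 over both genotypes (SE 0.18, 95% interval 0.08 to 0.84, unadjusted p = 0.0198), and the adjusted p was 1 in edgeR's quasi-likelihood test. The difference was 0.51 (SE 0.25) in Fkbp5lox/lox and 0.41 (SE 0.25) in Fkbp5Nex mice, and the interaction was 0.10 (95% interval -0.62 to 0.82). Without surrogate variables the pooled difference was 0.35 with an unadjusted p of 0.0952, that in Fkbp5lox/lox mice was 0.18 and that in Fkbp5Nex mice 0.53 (unadjusted p = 0.0782), so that the interaction was -0.35 in place of 0.10. With only the 12 mice compared, the difference in Fkbp5Nex mice was 0.53 with an unadjusted p of 0.0283. *Npas4* levels also ran against the dentate granule cell markers within the groups (r = -0.58, adjusted permutation p = 0.113), and the part of tissue composition in its difference was not tested. The 95% intervals of the ELS difference depended on the model. With surrogate variables that of *Egr1* ran from -0.24 to 0.25 in Fkbp5lox/lox mice and from -0.08 to 0.42 in Fkbp5Nex mice, and that of *Arc* from -0.24 to 0.3 and from -0.21 to 0.31. With group means alone, *Egr1* in Fkbp5Nex mice had 0.32 (-0.02 to 0.66) in place of 0.17, and *Arc* in Fkbp5lox/lox mice -0.13 (-0.48 to 0.21) in place of 0.03. With surrogate variables *Dusp1* had intervals of -0.31 to 0.1 and -0.2 to 0.19. For *Fos* they were wider, -0.42 to 0.59 and -0.57 to 0.47, and for *Egr2* they reached from -1.3 to 0.59 and from -0.33 to 1.49. The direction of *Fos* after ELS in Fkbp5lox/lox mice depended on 1 animal. The log2 fold change was 0.09 with all mice and -0.36 without mouse 72.

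The deletion of *Fkbp5* likewise left the 10 genes without a call. Over both rearing conditions 0 of 10 were called (0.117% of all tested genes, 19 genes) and 0 had p below 0.05 (11.5%). The median log2 fold change was 0.04, with 6 genes higher in Fkbp5Nex mice (49.2% of all tested genes). In control mice 0 were called (0.0494%) and 0 had p below 0.05 (8.69%), with a median of -0.02. After ELS 0 were called (0.0123%) and 0 had p below 0.05 (6.59%). The median was 0.09, with 8 genes higher in Fkbp5Nex mice (48.9% of all tested genes). Among the 8 was *Egr2*, which passed the filter only through the Fkbp5Nex ELS group. The genes moved together between mice, so the 8 are not independent of each other. *Fos* (-0.27, 95% interval -0.76 to 0.23) and *Ier2* (-0.25, 95% interval -0.59 to 0.08) were the 2 lower ones. The dentate granule cell markers had medians of 404 CPM in Fkbp5lox/lox ELS (range 239 to 943) and 202 CPM in Fkbp5Nex ELS mice (161 to 495). In control mice, where the median log2 fold change of the 10 genes was -0.02, these markers had medians of 378 and 205 CPM. Their score ran against all 10 genes within the groups, and their part in these genotype differences was not tested. With group means alone the median after ELS was 0.24, again with 8 genes higher (49.1% of all tested genes). No gene of the 10 had p below 0.05 (4.47% of all tested genes). In that model the log2 fold change of *Fosb* for genotype was 0.26 (unadjusted p = 0.02, adjusted p = 0.695 in edgeR's quasi-likelihood test), against 0.15 (unadjusted p = 0.152) with surrogate variables. The interaction of *Egr2* was -1.32 (unadjusted p = 0.0445, adjusted p = 1) against -0.93 (unadjusted p = 0.142), but *Egr2* passed the filter only through the Fkbp5Nex ELS group, where it was favoured to be high, so these values are a description. The surrogate variables held between 30.4% (*Fos*) and 68% (*Egr1*) of the variance of these genes within groups, against a median of 56.8% over all tested genes. The contrasts share mice, so their values are not independent of each other.

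**Figure D3:**
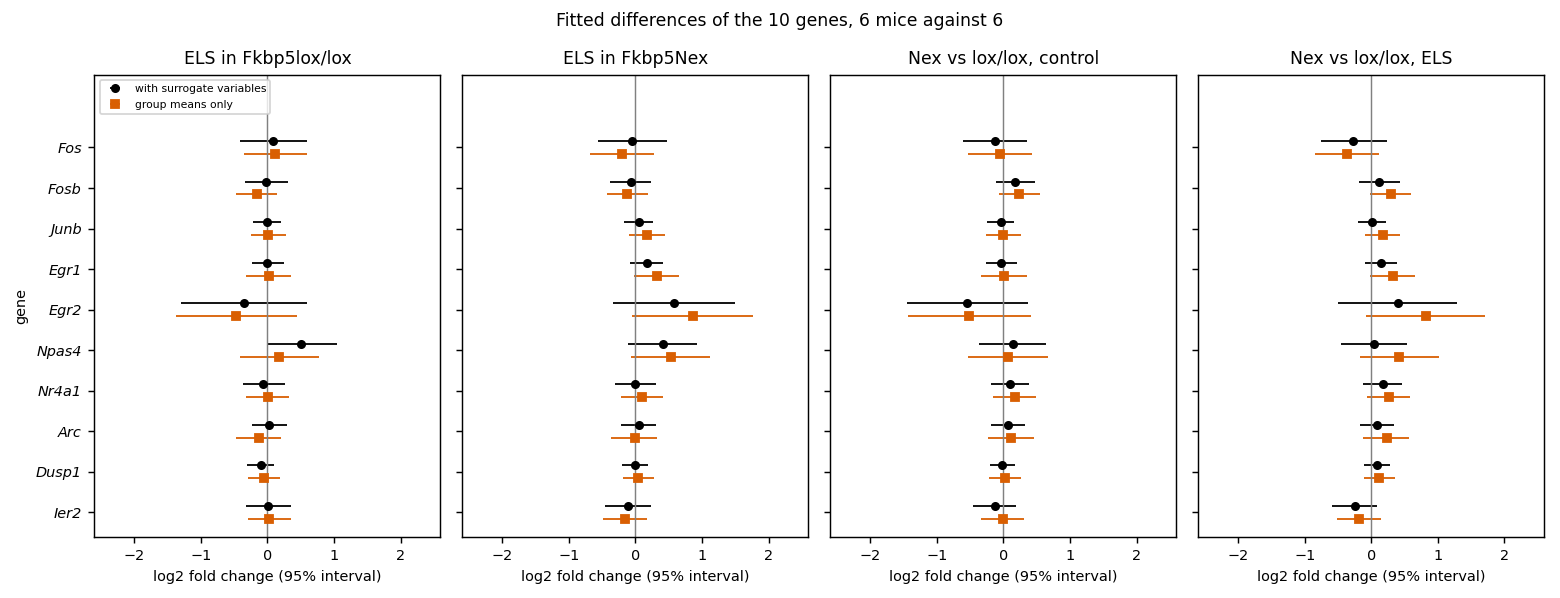
Log2 fold change of each gene (rows) with its 95% interval (x axis) for ELS in each genotype and for genotype in each rearing condition, 6 mice against 6. Black circles are from the model with surrogate variables and orange squares from group means only. In the model with surrogate variables every interval includes 0, and those of *Egr2* are the widest.

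Within the groups, single mice differed widely. The within-group SD of log2 CPM was 0.759 for *Egr2*, 0.54 for *Npas4* and 0.428 for *Fos*, against a median of 0.182 over all tested genes. It was 0.319 for *Arc*, 0.314 for *Egr1*, 0.285 for *Nr4a1*, 0.258 for *Fosb*, 0.253 for *Ier2*, 0.241 for *Junb* and 0.198 for *Dusp1*. Low genes vary more through counting error, so each SD was also set beside that of the genes within 0.5 log2 CPM of the same level. Among such genes *Egr2* was at percentile 97.0, *Arc* at percentile 95.5, *Egr1* at percentile 95.1, *Npas4* at percentile 92.4 and *Nr4a1* at percentile 88.4. *Dusp1* (percentile 51.8), *Fosb* (percentile 45.4) and *Ier2* (percentile 25.0) varied no more than other genes at their level. *Fos* stood out in 1 group, with an SD of 0.73 in Fkbp5lox/lox ELS mice and between 0.22 and 0.276 in the others. The depth of the libraries followed none of the genes closely enough to pass the correction (r with log2 total counts from -0.26 to 0.52 over the 10 genes). The highest value was that of *Fos* (rho 0.39, adjusted permutation p = 0.381 and 0.452, and r = 0.29 without the 2 farthest mice).

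A mouse that was high in one immediate early gene tended to be high in most others. Over the 45 pairs of genes, the deviations of log2 CPM from the group mean gave a median Pearson r of 0.43 across the 24 mice (Spearman's rho 0.39), and 43 pairs were positive. The median over all pairs of tested genes was 0, and 8.65% of those pairs exceeded 0.43. Permutation within groups with Benjamini-Hochberg adjustment over the 45 pairs gave 13 pairs with an adjusted p below 0.05 for r, 10 for rho and 9 for both. The closest pair was *Egr1* and *Nr4a1* (r = 0.80, adjusted permutation p = 0.00135; rho = 0.81, adjusted permutation p = 0.00225), with r = 0.77 after leaving out the 2 mice farthest from the median of *Egr1*. *Arc* followed *Egr1* (r = 0.71, adjusted permutation p = 0.00382; rho = 0.67, adjusted permutation p = 0.0128; 0.61 without the 2 farthest mice). *Junb* followed *Nr4a1* (r = 0.70, rho = 0.67, adjusted permutation p = 0.00963 and 0.0128; 0.66 without the 2 farthest mice), and *Arc* followed *Npas4* (r = 0.68, rho = 0.67, adjusted permutation p = 0.00963 and 0.0128; 0.57 without the 2 farthest mice). *Nr4a1* took part in 6 of the 13 pairs, more than any other member. The pairs share the same libraries and scaling.

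*Fos* stood apart. Its median r with the other 9 genes was 0.06, from -0.15 with *Junb* to 0.37 with *Ier2*, and none of its pairs passed the correction. Its r with *Fosb*, its paralogue, was 0.03 (rho = 0.07, adjusted permutation p = 0.928 and 0.744). The other 9 genes each had at least 1 pair that passed for r. For rho no pair of *Dusp1* passed, the smallest adjusted permutation p being 0.0508 with *Nr4a1*. Whether *Fos* differs from the other genes in this respect was not tested.

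**Figure D4:**
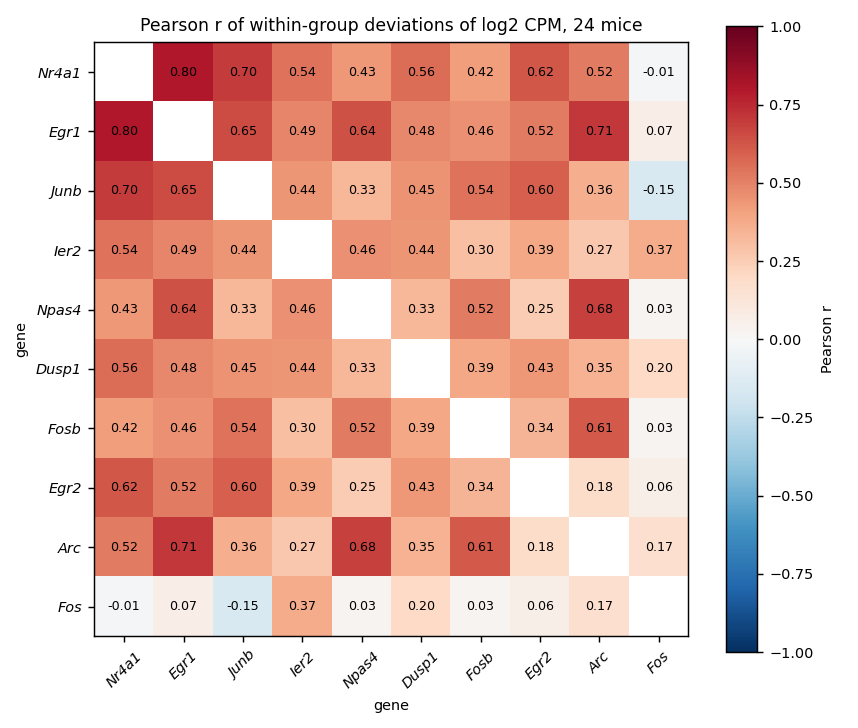
Pearson r between the within-group deviations of log2 CPM of each pair of genes across 24 mice, as colour and printed value. Genes are ordered by their median r with the others. *Nr4a1* and *Egr1* form the closest pair at 0.80, and the row of *Fos* stays between -0.15 and 0.37.

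Relative to the group means, the highest and the lowest mouse of this shared range were both Fkbp5Nex controls. The mean deviation over the 10 genes, in units of the within-group SD, was highest in Fkbp5Nex control mouse 42 (1.23, all 10 genes above the group mean). Fkbp5Nex ELS mouse 58 (1.06, 9 genes), Fkbp5lox/lox ELS mouse 72 (0.88, 9 genes) and Fkbp5Nex ELS mouse 62 (0.73, 9 genes) came next. The lowest was Fkbp5Nex control mouse 12 (-1.18, 1 gene above the group mean). Relative to the mean of all mice, in units of the SD over all mice, Fkbp5Nex ELS mouse 58 was highest (1.34). Mouse 42 had 1.23 and mouse 12 was again lowest (-1.15). The median pair r was 0.1 in Fkbp5lox/lox control, 0.35 in Fkbp5lox/lox ELS, 0.59 in Fkbp5Nex control and 0.69 in Fkbp5Nex ELS mice. These rest on 6 mice each, and their differences were not tested.

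**Figure D5:**
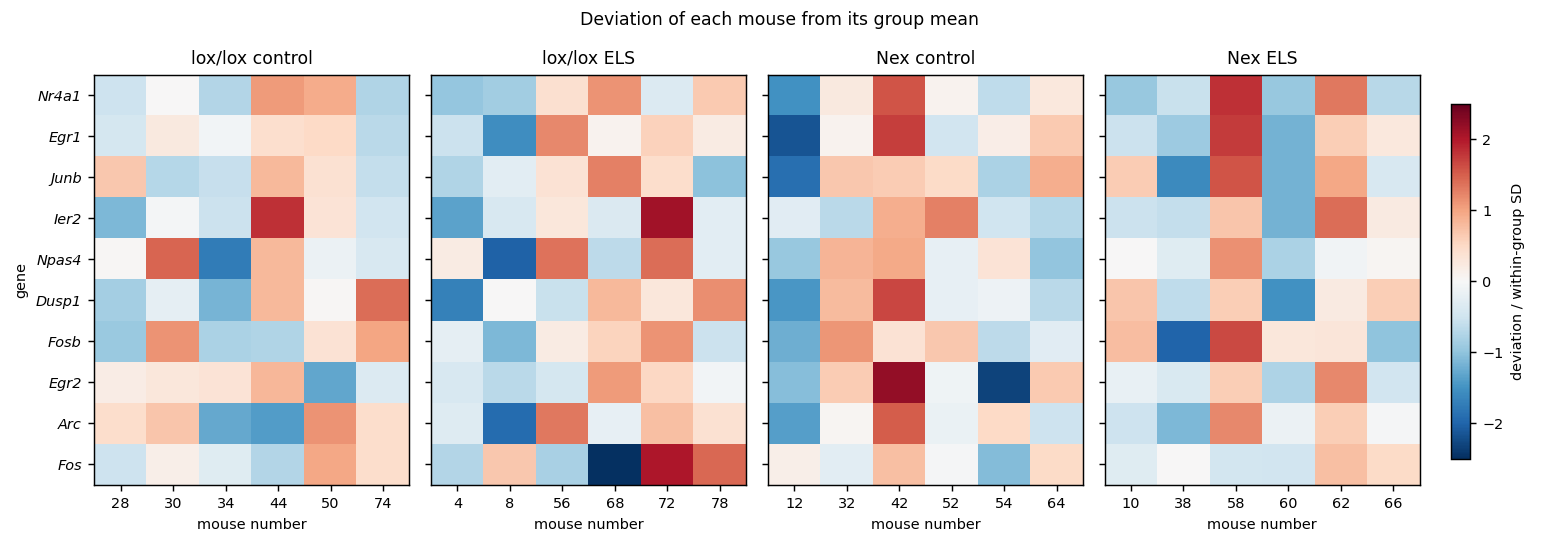
Deviation of each mouse (columns, by mouse number, split by group) from its group mean for each gene (rows), divided by the within-group SD of the gene. Mouse 42 is above its group mean in all 10 genes and mouse 12 above it in 1, whereas in mouse 68 *Fos* lies low while other genes do not.

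Some of the marker scores moved with part of this shared variation. The mean score of the 6 dentate granule cell markers was negatively related to all 10 genes within the groups (median r -0.42). For *Egr1* r was -0.74 (rho -0.65, adjusted permutation p = 0.037 and 0.088 over 130 relations; -0.54 without the 2 farthest mice) and for *Arc* -0.67 (rho -0.66, adjusted permutation p = 0.0425 and 0.0871; -0.50 without the 2 farthest mice). The choroid plexus score rested on the 4 of its 6 markers that passed the filter (*Ttr*, *Kl*, *Clic6* and *Sostdc1*). It was positive with all 10 (median r 0.28). For *Arc* it reached r = 0.76 (rho 0.75, adjusted permutation p = 0.013 and 0.0299, and r = 0.73 without the 2 farthest mice). The interneuron score (*Gad1*, *Gad2*, *Sst*, *Pvalb*, *Vip* and *Lhx6*) was positive with all 10 (median r 0.47, adjusted p below 0.05 for 0 of 10). The CA1 pyramidal cell score was positive with 9 of the 10 genes (median r 0.2, none past the correction). Its r with *Fos* was -0.42. The astrocyte and microglia scores were negative with all 10 genes (median r -0.34 for each, down to -0.6 and -0.59, none past the correction), and so was the endothelium score (median r -0.16). With *Arc* the CA3 pyramidal cell score, from 5 of its 6 markers, reached r = 0.61 (adjusted permutation p = 0.0894) and the oligodendrocyte score 0.57 (0.113). These 2 scores were positive with 5 and 9 of the 10 genes (median r 0.08 and 0.19). The median pair r was 0.31 with the dentate granule cell score regressed out, 0.39 with the choroid plexus score, 0.31 with the interneuron score and 0.25 with these 3 together. It was 0.36 with the astrocyte score and 0.38 with the microglia score regressed out. After removal of the surrogate variables it was 0.37, with 40 of 45 pairs positive, and *Egr1* and *Nr4a1* reached 0.86.

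The tested genes outside the 10 that followed their mean most closely included further rapid response genes. *Plk3*, a stress-responsive polo-like kinase, had r = 0.83 over 24 mice (rho 0.79), *Trib1*, a pseudokinase, r = 0.76 (rho 0.79) and *Dusp10*, a phosphatase of stress-activated MAP kinases, r = 0.75 (rho 0.70). *Oprk1*, the kappa opioid receptor, had r = 0.74 and the gene that the table names *Pde2a* r = 0.72. GENCODE vM21 names the identifier of the latter *Gm45837*, a gene that overlaps its *Pde2a* on the same strand, so it is uncertain which of them the reads belong to. *Prosc* (0.77), *Gclm* (0.74), *Gm14494* (0.74), *Zmat3* (0.74) and *9030617O03Rik* (0.73) completed the 10 closest. These values rank 16209 genes and are given without a test.

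The wider programme around the immediate early genes gave no call either. Of 15 other rapid transcription factors and regulators, 22 activity-regulated effectors and 16 upstream regulators, all were tested and 0 were called in either direction in any of the 7 contrasts. For ELS in Fkbp5lox/lox mice the medians were -0.031, 0.022 and 0.022 on the log2 scale, against 0.003 over all tested genes. The unadjusted p was below 0.05 for 2, 2 and 0 of them (4.86% of all tested genes). Those with the smallest p among the transcription factors were *Crem* (-0.19, unadjusted p = 0.0271), a cAMP-responsive factor, *Csrnp1* (0.35, unadjusted p = 0.0287) and *Maff* (0.43, unadjusted p = 0.205). Among the effectors they were *Ptgs2* (0.41, unadjusted p = 0.0184), which encodes cyclooxygenase-2, *Inhba* (0.61, unadjusted p = 0.0298), a subunit of activin, and *Tiparp* (-0.16, unadjusted p = 0.0568). The upstream regulators were led by *Elk4* (0.11, unadjusted p = 0.0934) and *Rps6ka5* (-0.14, unadjusted p = 0.0994). In the other contrasts, in the same order of lists, such a p was found for 1, 0 and 0 genes for ELS in Fkbp5Nex mice (2.8% of all tested genes), 2, 0 and 1 for ELS over both genotypes (3.56%), 0, 1 and 0 for the interaction (4.02%), 2, 6 and 2 for genotype (11.5%), 0, 1 and 1 for genotype in controls (8.69%) and 0, 3 and 1 for genotype after ELS (6.59%).

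The 2 genes with the smallest of these p-values are named here, chosen after their values were seen. *Atf3*, a stress-induced member of the ATF/CREB family, had a log2 fold change of -1.04 after ELS in Fkbp5Nex mice (SE 0.33, unadjusted p = 0.00431, adjusted p = 1 in edgeR's quasi-likelihood test), and -1.08 without surrogate variables (unadjusted p = 0.000645, adjusted p = 1). Its mean level was 0.489 CPM, so that counting error is large. A gene this low may have passed the filter through its highest group only, which would favour high values there. Without surrogate variables *Atf3* was 0.39 higher in Fkbp5Nex than in Fkbp5lox/lox controls. Fkbp5Nex controls are the baseline of the fall, so its values are a description. The same caution holds for *Maff*, named above, at a mean of 0.701 CPM. *Elk1*, a cofactor of serum response factor, had -0.12 for genotype (SE 0.03, unadjusted p = 0.00153, adjusted p = 0.138) and -0.21 without surrogate variables (unadjusted p = 0.034).

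The same lists divided in how they followed the mean of the 10 genes from mouse to mouse. The median r was 0.20 for the transcription factors (10 of 15 positive), 0.20 for the effectors (14 of 22) and -0.29 for the upstream regulators (3 of 16), against -0.01 over all tested genes, of which 48.6% were positive. *Egr4* (0.72), *Csrnp1* (0.61), *Dusp5* (0.67), *Vgf* (0.65) and *Homer1* (0.57) ran with the immediate early genes, and so did *Camk4* (0.55), a nuclear calcium-dependent kinase of CREB. *Jun*, the partner of FOS in AP-1, ran the other way (-0.56), as did *Scg2* (-0.59), *Bdnf* (-0.51), *Ier5* (-0.47) and *Btg2* (-0.43). *Elk1* had the lowest value of the lists (-0.65). These genes were singled out after their values were seen, and the values are a description without a test. The part of tissue composition in them was not tested.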

How the data were processed

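The deposited table holds the authors' unnormalised read counts for the genes of 24 hippocampal samples. Per the study's methods and the submitters' processing notes, reads with adaptors, poly-N or low quality were removed, read pairs were aligned with HISAT2 2.0.5 and counted with featureCounts 1.5.0-p3. The genome build, annotation, strand setting and the handling of reads with several alignments are not given in the sources used here. Groups were taken from the sample labels. The members and gene lists were chosen with earlier results of these data known.

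All other values were computed here in R 4.3.3 (edgeR 4.0.16, sva 3.50.0, DESeq2 1.42.0) and Python 3.11.15 (numpy 2.4.6, scipy 1.17.1, pandas 2.3.3). Total counts per mouse had a median of 21385946.5, and genes near 10 counts carry large counting error. CPM were scaled by TMM, and log2 CPM used a prior count of 2. Contrasts came from edgeR's quasi-likelihood fit of 4 group means and 5 surrogate variables (svaseq, number by num.sv, method be), with Benjamini-Hochberg adjustment over 16209 genes at an FDR of 0.02. Of the variance of the surrogate variables, the groups explained from 2.97% to 24%. DESeq2, the tool of the study's methods, served as an alternative. Correlations used deviations from group means with 100000 two-sided permutations within groups, for which the smallest p is 1e-05. The p-values treat mice as independent, and litters and sequencing batches are not in the labels, so no relation was recomputed within batches. Scripts were tested on simulated data. Named genes were the 10 members, the 10 genes most like their mean, the 3 of each list with the smallest p for ELS in Fkbp5lox/lox mice and any list gene past the FDR, except that 1 gene this rule names is not reported here. Genes of the lists named for their likeness to the members were chosen after their values were seen. Positions were matched to GENCODE vM21 (GRCm38) by Ensembl identifier, for 46488 of 46983 genes, and promoter sequences are from RefSeq (GRCm38.p6). Of the markers, 12 lists of brain regions and cell types were scored as the mean within-group z-score of their tested genes.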

Additional observations from a re-analysis of the deposited data

Results flagged for a closer look

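*Npas4* in Fkbp5Nex ELS mouse 58 was at 8.58 CPM (184 reads), far above the next of its group at 5.65 CPM. The gap took 0.658 of the range of the group, above Dixon's 95% critical value for 6 samples. Of 40 sets of values examined (10 genes in 4 groups) this was the only one, where chance gives about 1 in 20. Mouse 58 was above its group mean in 9 of the 10 genes. Without it, the pooled ELS difference of *Npas4* was 0.42 in place of 0.46 on the log2 scale.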

How the results depend on the processing

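In the 31 alternatives (no surrogate variables, DESeq2's size factors, DESeq2's Wald test, filterByExpr or no filter on low counts, a looser FDR of 0.05, only the 12 mice compared, and each mouse left out in turn) 0 of the 10 genes were called in any contrast, and the smallest adjusted p was 0.378. *Egr2* had no adjusted p for genotype in DESeq2's Wald test and could not be called there. Calls over all genes did vary, with 19 for genotype in the edgeR fit reported, 3 without surrogate variables, 70 by DESeq2's Wald test and 50 at an FDR of 0.05, and for genotype in controls 8, 2, 53 and 29. No paired analysis was possible because the mouse numbers are not shared between groups.

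Most differences of single genes were small against their errors. Exceptions included *Npas4* for ELS (0.46, SE 0.18) and, without surrogate variables, *Fosb* for genotype (0.26, SE 0.11). A change of sign is listed where the value moved by more than its SE. Without surrogate variables these were *Junb* for genotype (0.08), *Arc* for ELS (-0.07) and for ELS in Fkbp5lox/lox mice (-0.13, also with only the 12 mice compared) and *Npas4* for the interaction (-0.35), and the cause was not tested. In all, 15 of 70 values changed sign without surrogate variables, and 1 to 19 when a mouse was left out. With each mouse left out, such changes gave these ranges. *Fos* ran from -0.36 to 0.01 for genotype, -0.21 to 0.1 for ELS, -0.29 to 0.33 for the interaction, -0.36 to 0.23 for ELS in Fkbp5lox/lox and -0.5 to 0.15 for genotype after ELS, each with a change of sign on leaving out Fkbp5lox/lox ELS mouse 72. *Ier2* ran from -0.16 to 0.07 for ELS, -0.11 to 0.26 for the interaction and -0.19 to 0.19 for ELS in Fkbp5lox/lox. *Dusp1* ran from -0.19 to 0.03 for the interaction and -0.14 to 0.01 for ELS in Fkbp5lox/lox. *Egr1* ran from -0.15 to 0.1 for genotype and -0.01 to 0.21 for genotype after ELS. *Arc* ran from 0 to 0.13 and *Nr4a1* from -0.01 to 0.18 for genotype, and for genotype in controls *Arc* ran from -0.08 to 0.14, *Nr4a1* from -0.14 to 0.18 and *Npas4* from -0.1 to 0.38. The pooled ELS difference of *Npas4* stayed between 0.32 and 0.68.

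The median pair correlation was 0.39 by ranks, 0.43 with DESeq2's size factors and with a prior count of 0.5, and 0.37 to 0.46 when a mouse was left out. The regressions on marker scores were chosen after seeing the data. Depth limits *Egr2* most, with a median of 13 reads per mouse.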
